A study of Mus musculus with 7 samples.

Results

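Away from promoters, TRF2 CUT&Tag signal in mouse muscle stem cells (MuSCs) often lay inside chromatin that was also open in MuSCs labelled 0 h. The regions described here are those distal TRF2 regions in open chromatin. They were chosen by measured values, namely the peaks that the peak caller MACS listed in each library. Peaks of the 2 TRF2 libraries on chromosomes 1 to 19 were merged, and a merged region was kept when it held a peak of each replicate, held no IgG peak, lay more than 3 kb from every GENCODE M21 transcript start and overlapped an ATAC peak in all 4 ATAC libraries. Of 19918 merged TRF2 regions, 1318 met this rule. The presence of TRF2, IgG and ATAC peaks and the distance to a start are therefore not findings. Sequence and gene neighbourhood were not part of the rule. The strength of ATAC signal and the difference between genotypes were not used directly, but only regions with a peak in all 4 ATAC libraries were kept. Regions without a peak in a TRF2KO library were thus left out before the genotypes were compared.

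TRF2, encoded by Terf2, is a subunit of shelterin, the protein complex that binds the TTAGGG repeats at chromosome ends and protects them from the DNA damage response. It has also been found at internal chromosomal sites, some of them G-rich sequences able to fold into G-quadruplexes (G4s). Distal open regions include enhancers, short stretches of DNA where transcription factors assemble and act on genes at a distance. AP-1, a dimer of Fos and Jun family proteins, is one of the factors that commonly occupy enhancers, and its genes belong to the immediate early genes, which cells induce rapidly when they are stimulated.

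The study held 7 libraries of mouse MuSCs. Its general protocol sorted cells positive for α7-integrin and for VCAM or CD34 that lacked CD45, CD31, CD11b and Sca1, and which gate each library used is not stated in the sources used here. CUT&Tag cuts chromatin where an antibody has bound, and it gave 2 TRF2 libraries and 1 rabbit IgG library, labelled as wild type and as taken 3 days after notexin, a toxin that injures muscle. The methods of the study instead give control mice with Pax7-driven Cre and a floxed TdTomato reporter and a shorter interval, so genotype and time are uncertain. ATAC-seq maps accessible DNA with an untethered transposase, and there were 2 libraries of Control and 2 of TRF2KO, titled 0 h. This is taken here to mean uninjured muscle, which the methods of the study do not state for ATAC-seq. In the TRF2KO mice a floxed Terf2 gene was deleted in MuSCs by a tamoxifen-inducible Cre expressed from Pax7, and whether the Control mice carried Cre or received tamoxifen is not stated in the sources used here. All mice were on a C57BL/6 background. For TRF2KO the titles name the knockout while the genotype entry says wild type, and grouping followed the titles. If 0 h means uninjured muscle, TRF2 occupancy was measured after injury and openness before it. Effects of this difference in state cannot be told apart from those of TRF2 itself.

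The lists held 12066 and 15223 TRF2 peaks, 640 IgG peaks and 82556 to 98558 ATAC peaks per library on chromosomes 1 to 19. Read totals were not used here. Fragments at a summit were not counted but solved from the fold and p-value that MACS gave, assuming a Poisson background. By this estimate, the median summit of the distal TRF2 regions in open chromatin rested on 11 fragments in each TRF2 replicate, with quartiles of 8 and 14. Terf2 itself had an ATAC peak at its start in all 4 libraries, at list percentiles of 90.03 and 91.4 in Control and 75.01 and 73.4 in TRF2KO. All 7 MuSC markers examined, among them Pax7 and Myf5, had an ATAC peak within 1 kb of a start in all 4 libraries, with a median list percentile of 89.5 over libraries. Of 4 immune markers, Ptprc, Itgam and Cd3e had none in any library, whereas Cd68 had one in all. Over the 4 libraries, Cd68 stood at list percentiles of 25.7 to 53.7. Of 4 endothelial markers, Pecam1, Kdr and Tie1 had a peak in all libraries, at 5.04 to 48.8. Of 4 fibro-adipogenic markers, Pdgfra (87.8 to 90.03) and Dpt (79.99 to 98.2) had one in all libraries, and of 4 myofibre markers Myh1 and Ckm did, at 64.3 to 83.7. The part of other cells in the results was not tested.

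The sequences below carry the main observations and are shown 5′ to 3′ on the plus strand of GRCm38, as read from the reference genome. The first set holds the AP-1 motif TGANTCA in capitals (both strands were searched, and TGANTCA reads the same on either strand apart from its middle base). It comes from regions next to genes of activation, matrix and cytoskeleton. Ier3 is an immediate early gene, Tnc encodes the matrix glycoprotein tenascin C, Lama2 a laminin chain of the muscle basement membrane, Actb cytoplasmic actin and Fgfr1 a receptor for fibroblast growth factors. The last of the set, near 7420700N18Rik, had the largest difference between genotypes.
Ier3, chr17:35813342-35813461: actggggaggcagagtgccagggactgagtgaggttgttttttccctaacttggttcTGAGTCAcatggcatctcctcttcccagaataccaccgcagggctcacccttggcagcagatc
Tnc, chr4:64058928-64059047: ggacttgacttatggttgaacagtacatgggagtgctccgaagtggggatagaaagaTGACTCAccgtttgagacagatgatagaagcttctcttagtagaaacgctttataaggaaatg
Lama2, chr10:27063833-27063952: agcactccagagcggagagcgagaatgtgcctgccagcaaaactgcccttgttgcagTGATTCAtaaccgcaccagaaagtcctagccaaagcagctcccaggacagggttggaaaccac
Actb, chr5:142920923-142921042: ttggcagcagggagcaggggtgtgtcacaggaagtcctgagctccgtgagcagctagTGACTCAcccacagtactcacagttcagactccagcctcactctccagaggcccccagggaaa
Gm10689 (nearest coding gene Fgfr1), chr8:25465642-25465761: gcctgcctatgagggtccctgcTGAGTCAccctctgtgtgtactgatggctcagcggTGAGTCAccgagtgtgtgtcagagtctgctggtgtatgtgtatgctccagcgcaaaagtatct
7420700N18Rik, chr8:31373396-31373515: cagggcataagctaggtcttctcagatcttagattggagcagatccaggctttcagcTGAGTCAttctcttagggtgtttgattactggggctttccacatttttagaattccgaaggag

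A second set holds a G4 pattern in capitals, that is, 4 stretches of 3 or more G with 1 to 7 bases between neighbouring stretches. The search covered each strand, so that runs of C in the printed strand are G on the other. The Fos region is CpG-rich and lies 10964 bp from the nearest Fos start, and the region near Gm27698 is a tandem repeat that is rich in C on the printed strand.
Fos, chr12:85486132-85486251: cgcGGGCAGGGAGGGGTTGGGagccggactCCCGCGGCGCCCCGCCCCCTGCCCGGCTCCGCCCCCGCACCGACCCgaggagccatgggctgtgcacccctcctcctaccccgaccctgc
Gm27698 (nearest coding gene Smad5), chr13:56670991-56671110: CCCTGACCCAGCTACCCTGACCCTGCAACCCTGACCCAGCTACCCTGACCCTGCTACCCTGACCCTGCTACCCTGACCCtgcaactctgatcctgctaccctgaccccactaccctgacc

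The last sequence is centred on the TRF2 summit of the region in an intron of Pax7, the paired-box factor that marks MuSCs. It is shown because the ATAC signal there differed between genotypes. The region, chr4:139805284-139805697, held no AP-1 motif and no G4 pattern, and the capitals mark an E-box (CAGNTG, the core bound by myogenic factors), here on the minus strand.
Pax7, chr4:139805370-139805569: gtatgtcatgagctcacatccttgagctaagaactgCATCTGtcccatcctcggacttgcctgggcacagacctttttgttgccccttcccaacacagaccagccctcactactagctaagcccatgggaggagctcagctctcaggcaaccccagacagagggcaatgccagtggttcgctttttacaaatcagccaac

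Where the regions lay was described first. Of 7287 merged regions with a peak of each TRF2 replicate, 235 also held an IgG peak and were left out. Of the 7052 that remained, 1924 (26.4% of the 7287) were more than 3 kb from a start. Among these, 1318 (68.5%) overlapped an ATAC peak in all 4 libraries, 199 in 1 to 3 libraries and 407 in none. TRF2 regions within 3 kb of a start were open in all 4 libraries in 4964 of 5128 cases (96.8%). At the edges of the rule, the member nearest to a start was 3018 bp away (near 4921531C22Rik, TRF2 folds 5.66 and 5.41), and the farthest open region left out was at 2991 bp (near Helz, 5.49 and 4.83). The 55 regions with an ATAC peak in 3 of 4 libraries had median TRF2 folds of 5.40 and 6.004.

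The 1318 regions had a median width of 435 bp, from 215 to 1244 bp, and covered 0.607 Mb. Their median distance to the nearest start was 13313.5 bp, and 510 lay within 10 kb, 688 between 10 and 50 kb and 120 farther away, up to 282643 bp. The rule used GENCODE starts alone. In the RefSeq annotation, 1181 of the 1318 (89.6%) were also more than 3 kb from every start, and the rest lay nearer to one and may be promoters. Introns held 623 regions (47.3%), sequence between genes 598 (45.4%), coding or noncoding exons 64, 3′ UTRs 29 and 5′ UTRs 4. The comparison set throughout was the 31775 other distal regions that were open in all 4 ATAC libraries and held neither a TRF2 nor an IgG peak. Of these, 48.1% were in introns and 42.4% between genes, at a median distance of 14674 bp. Location thus differed little between the sets, with an exact 95% interval of 42.7 to 48.1% for the share of TRF2 regions between genes. Intervals of shares are exact binomial (Clopper-Pearson) and hold counting error alone, as if regions were independent, and no test was run between region sets. The regions were spread over 1197 nearest genes, 1090 of which had a single one.

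TRF2 signal varied between replicates. The MACS fold, the fragment pileup at the summit over local background, had a median of 5.82 in replicate 1 (2.45 to 33.9) and 6.24 in replicate 2 (3.11 to 40.2). For TRF2 regions at promoters that were open in all 4 libraries the medians were 6.41 and 6.77, and for distal TRF2 regions outside all ATAC peaks they were 5.55 and 6.09. Across the 1318 regions the folds of the replicates correlated with a Spearman rho of 0.485, a description over regions that share libraries. Replicate summits were a median of 72.5 bp apart, and 838 pairs (63.6%) lay within 100 bp. The TRF2 summit lay a median of 80 bp from the ATAC summit, and within 150 bp of it in 956 regions (72.5%). Of the other lists in the deposit, GoPeaks called an ATAC region at 1260 of the 1318 in all 4 libraries, SEACR at 821, and the consensus lists of both genotypes held 1219. Of 1006 enhancers in the RefSeq annotation, regions near Fos, Fosb, Btg2, Ccnd3 and 10 other genes overlapped one, 15 regions in all (1.14%, against 0.680% of the other distal open regions).

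**Figure D1:**
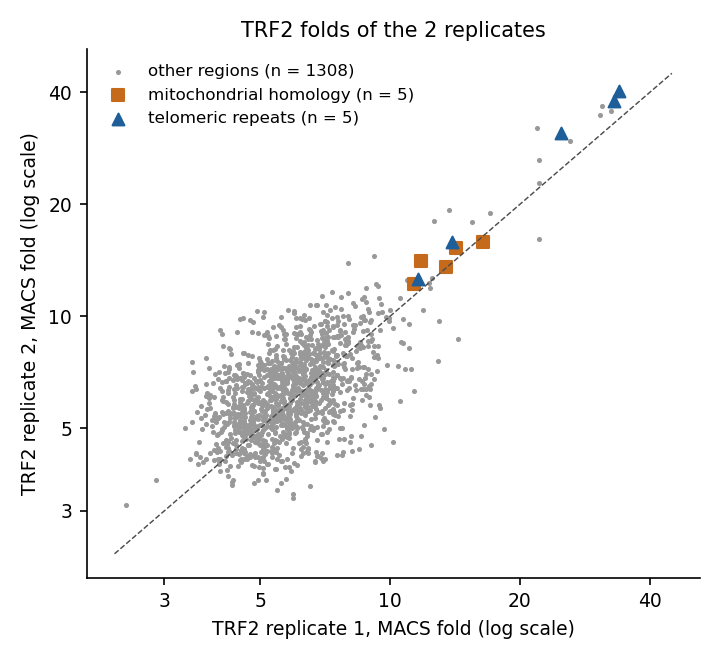
Each point is a distal TRF2 region in open chromatin, with the MACS fold of TRF2 replicate 1 on the x axis and of replicate 2 on the y axis (both log scales), and the dashed line marks equal folds. Most regions lay between 3 and 10 in both, and the 5 regions with telomeric repeats (triangles) and the 5 with homology to mitochondrial DNA (squares) were among the 30 highest.

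Of the motifs searched, AP-1 differed most between these regions and other open chromatin. At least 1 TGANTCA lay in 754 of the 1318 regions (57.2%, 95% interval 54.5 to 59.9%), and 250 regions held 2 or more, up to 7 in a single one. The classical forms with C or G at the centre occurred in 666 regions (50.5%). To compare sets of different widths, the motif was counted in windows of 300 bp. Centred on the ATAC summit, 663 windows of distal TRF2 regions (50.3%, 47.6 to 53.0%) and 5713 of 31775 windows of other distal open regions (17.98%, 17.6 to 18.4%) held it. At TRF2 regions near promoters the share was 7.61%. In windows 1 kb to either side of the TRF2 summit it was 9.22%, so that the motif was concentrated in the sequence around the summit. Within 50 bp of the TRF2 summit it lay in 263 regions (19.95%). Distal open IgG peaks held it in 6 of 125 windows (1.78 to 10.2%). Distal TRF2 regions outside all ATAC peaks held it in 161 of 407 windows (39.6%), and those with an ATAC peak in 1 to 3 libraries in 97 of 199 (48.7%), both measured at the TRF2 summit, where the regions open in all 4 libraries had 611 (46.4%).

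**Figure D2:**
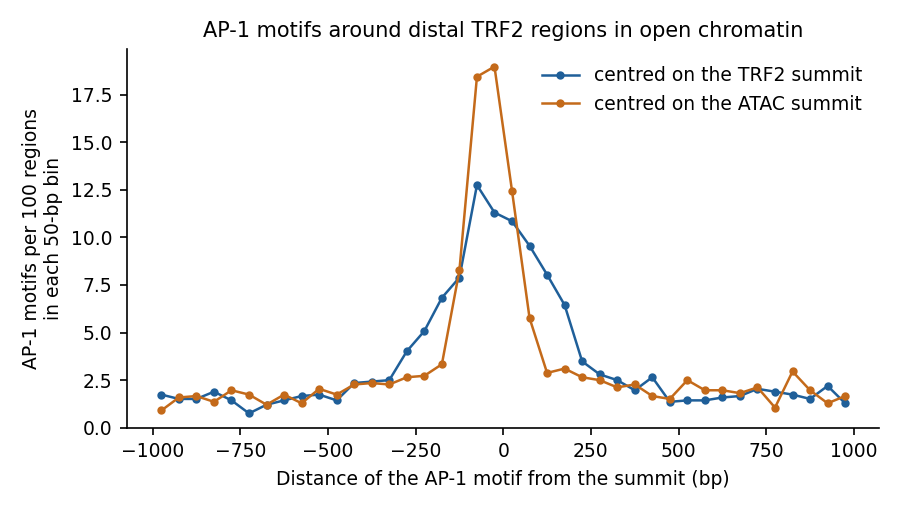
The y axis gives AP-1 motifs per 100 distal TRF2 regions in bins of 50 bp, and the x axis the distance in bp from the TRF2 summit (blue) or the ATAC summit (orange). The motif peaked beside both summits, at 12.7 per 100 regions in the bin from 100 to 50 bp before the TRF2 summit and at 18.97 in the bin just before the ATAC summit, and more than 500 bp away it stayed under 3 per 100.

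The motif was set beside openness next. Distal open regions were sorted into bins of 10 points by their mean ATAC percentile in the Control libraries. AP-1 was found in 73.8% of the TRF2 regions of the least open bin (31 of 42) and 37.7% of the most open bin (132 of 350). The other distal open regions ranged only from 15.8 to 20.9%. In each bin the intervals of the sets were separate. Within the distal TRF2 regions, those with AP-1 were accordingly less open, with median ATAC percentiles of 74.1 and 73.2 in the Control libraries against 82.8 and 82.6 without the motif. Of the distal TRF2 regions and other distal open regions in a bin, the TRF2 regions made up 1.13% in the least open bin and 34.4% in the most open bin. Distal open regions with a TRF2 peak of a single replicate or with an IgG peak were in neither set. These values are therefore not shares of all distal open chromatin. Whether openness itself adds to CUT&Tag signal was not tested, and the control was a single IgG library with 640 peaks. The strength of TRF2 signal and the motif showed no steady relation. Over 4 groups of about equal size, from the lowest to the highest TRF2 fold (the lower of the replicates), AP-1 was found in 53.9%, 53.5%, 64.6% and 56.8% of regions, and the 30 regions with the highest folds held it in 2.

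**Figure D3:**
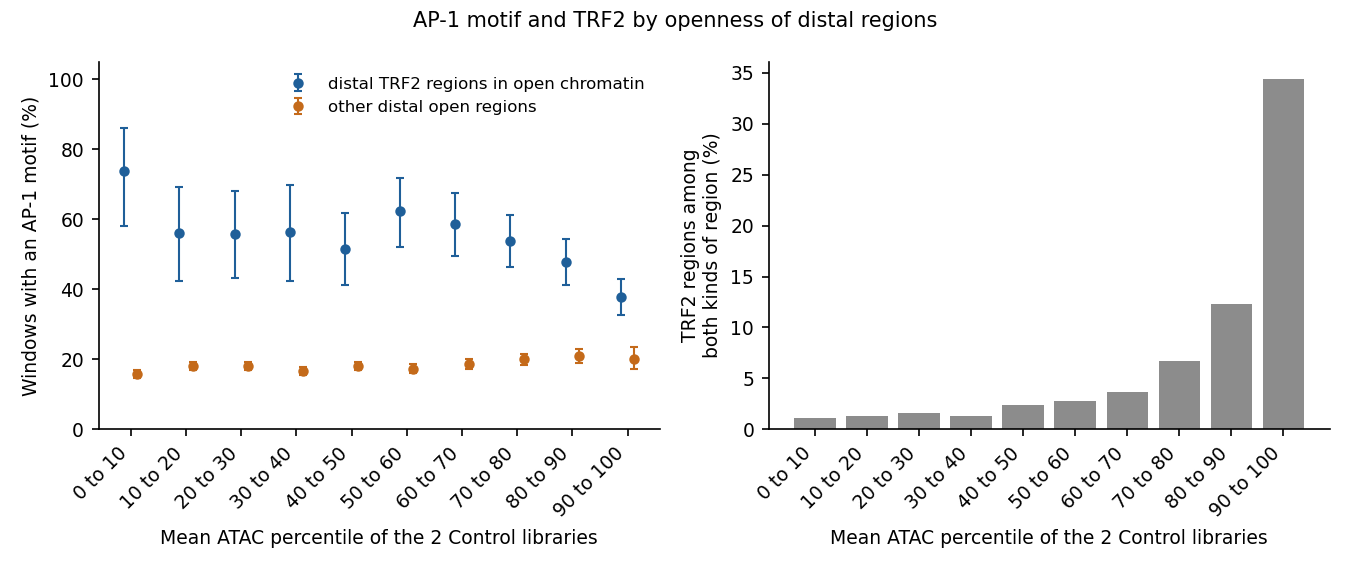
Left, the percentage of 300-bp windows at the ATAC summit with an AP-1 motif (y axis) for distal TRF2 regions in open chromatin (blue) and other distal open regions (orange), by mean ATAC percentile of the 2 Control libraries (x axis), with exact 95% intervals. The blue points stay above the orange ones in every bin, and the right-hand bars show TRF2 regions rising from 1.13% to 34.4% of both kinds of region.

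G4 patterns became more frequent with GC content from 45% upwards. Of the distal TRF2 regions, 260 (19.7%, 17.6 to 22.0%) held a G4 pattern over their whole width. In 300-bp windows at the ATAC summit the share was 11.7% (10.0 to 13.5%), against 6.67% (6.40 to 6.95%) of other distal open regions, and at the TRF2 summit it was 14.1%, against 29.7% of TRF2 regions near promoters. Median GC content was 54.7% in the distal TRF2 windows, 50.3% in the other distal open windows and 65.3% at promoter TRF2 regions. Within bins of GC content the G4 intervals of the sets overlapped. This does not show equal shares, since bins were small, with 76 distal TRF2 windows in the highest. At 50 to 55% GC the pattern was found in 5.50% of distal TRF2 windows and 6.73% of the others, at 55 to 60% in 11.1% and 13.5%, and at 60 to 65% in 29.0% and 24.6%, and from 65% upwards in 47.4% (35.8 to 59.2%) and 36.0% (30.7 to 41.7%). By openness the most open bin of 10 percentile points differed, with G4 in 18.3% (14.4 to 22.7%) of distal TRF2 windows and 9.58% (7.46 to 12.1%) of the others. AP-1 differed in the GC bins from 50 to 65%, at 57.3% against 16.3%, 50.4% against 12.6% and 31.7% against 7.69%. G4 patterns were found in 16.1%, 17.9%, 20.1% and 24.8% of regions in the same 4 groups by TRF2 fold. Both features were present in 124 regions and neither in 428.

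**Figure D4:**
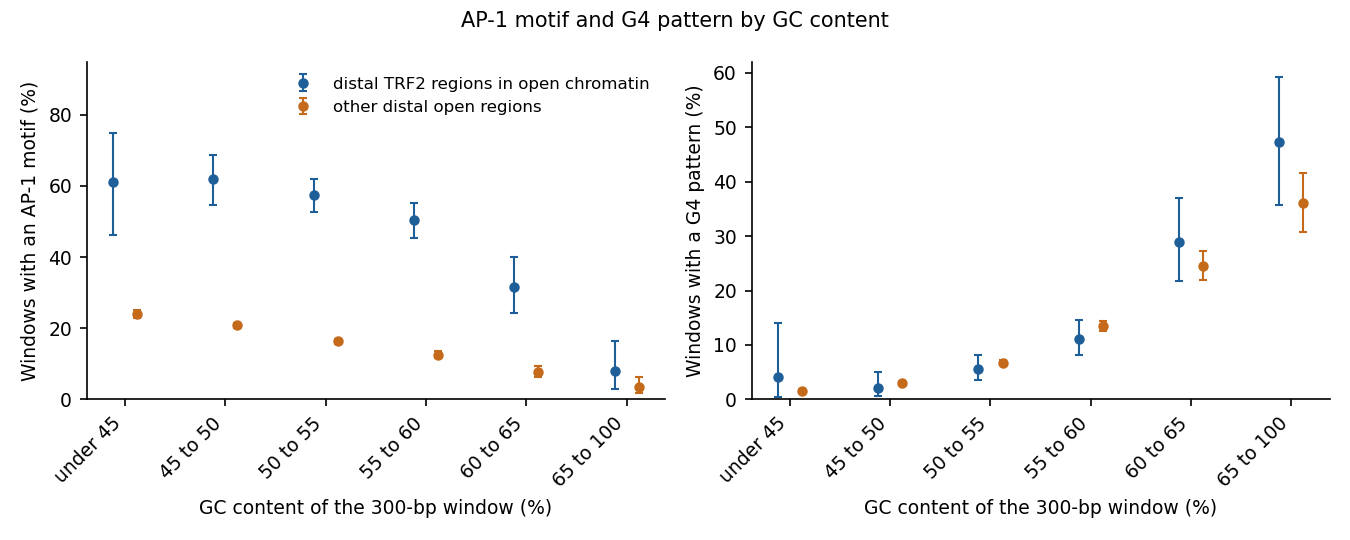
Percentage of 300-bp windows at the ATAC summit with an AP-1 motif (left) or a G4 pattern (right) by GC content of the window (x axis, %), for distal TRF2 regions in open chromatin (blue) and other distal open regions (orange), with exact 95% intervals. AP-1 is higher in the TRF2 regions in each bin up to 65% GC and the intervals overlap above it, while the G4 intervals overlap in each bin.

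Other motifs were searched in the same windows on both strands. The E-box was found in 73.6% of distal TRF2 windows and 71.7% of other distal open windows, and the TEAD motif (GGAATG, bound by the partners of YAP) in 21.7% and 20.6%. The core of the CTCF motif (CTCF anchors chromatin loops) was less frequent at distal TRF2 regions, 4.48% (3.42 to 5.74%) against 10.0% (9.72 to 10.4%). More frequent were the GC box (GGGCGG, bound by Sp factors) at 17.9% against 8.82% and the RUNX motif (TGTGGT) at 28.9% against 22.3%. The NFI motif TTGGCA stood at 24.4% and 28.6%, and the RBPJ motif (GTGGGAA, the Notch effector) at 7.36% and 8.70%. The motifs in this paragraph were not binned by GC content (median 54.7% in distal TRF2 windows and 50.3% in the others) or by openness. The part of either in these differences was not tested. A motif match is a description of the sequence and not a measurement of the factor. Repeats took up 7.99% of the distal TRF2 windows at the ATAC summit on average and 10.1% of the others. In windows at the TRF2 summit they took up 8.99%, against 25.1% in distal TRF2 regions outside ATAC peaks, and in those at the summit of distal open IgG peaks 57.0%.

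A small group was CpG-rich, with a GC content above 50% and a CpG ratio above 0.6 in the window at the TRF2 summit. It had 89 regions (6.75%, 5.46 to 8.24%), of which 66 (74.2%) lay between genes, against 43.3% of the rest. Their median ATAC percentiles were 93.2 and 93.5 in Control and 93.6 and 93.5 in TRF2KO, G4 patterns were found in 44 (49.4%) and AP-1 in 11 (12.4%). They included the Fos region printed above, a second one near Fos, and those near Nr4a1 and Btg2. In the RefSeq annotation, the second Fos region lay 2958 bp from a start and the Btg2 region 1881 bp.

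The strongest TRF2 folds belonged to a different kind of sequence. The 10 highest had lower folds of 21.9 to 33.9, and none held an AP-1 motif. The region near Gm23941 led with TRF2 folds of 33.9 and 40.2, followed by the one in an intron of Dop1b with 33.1 and 38.0. Both hold internal telomeric repeats, here at least 3 units of TTAGGG in a row on either strand. Their ATAC percentiles were not high, 43.2 and 52.6 in Control and 46.5 and 60.2 in TRF2KO at Gm23941, and 61.1 and 60.2 against 66.9 and 69.6 at Dop1b. Telomeric repeats were present in 5 of the 1318 regions (0.379%, 0.123 to 0.883%), also at Gm13173 (TRF2 folds 24.9 and 31.1), Gm20039 (13.9 and 15.8) and Mrgprd (11.6 and 12.6). In 300-bp windows at the ATAC summit they were present in 4 of the 1318 regions (0.303%) and in none of the 31775 other distal open regions, for which the exact 95% interval reaches 0.0116%. IgG marked such sequence too, since 13 of 85 distal open TRF2 regions with an IgG peak, which the rule removed, held telomeric repeats.

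Of the other 7 among the 10 highest, 5 were in the top 0.1% of open regions in all 4 ATAC libraries, as were 8 of the 1318 regions in all. These were the regions near AC154187.1 (TRF2 folds 32.6 and 35.6), in Gphn near Gm48224 (31.1 and 36.7), near Hic2 (30.7 and 34.8), in Camk1d near Gm13197 (26.1 and 29.5) and near Gm7860 (21.9 and 32.05). They were extreme in both assays and in both genotypes. At Gm13197 the ATAC folds were 467 and 424 in Control and 576 and 529 in TRF2KO, whereas the 1318 regions had medians of 36.2 and 30.8 in Control and of 34.5 and 32.002 in TRF2KO. A further 5 regions had homology to the mitochondrial genome over 262 to 392 bp at 82.8 to 99.7% identity, and they too were among the 30 highest TRF2 folds, for example the region near Gm47397 with 11.8 and 14.0. The consensus lists of the authors, from which blacklisted regions had been removed, lacked the 10 highest. Distal open TRF2 regions with an IgG peak had median TRF2 folds of 12.3 and 13.4, and the part of background of this kind in the highest folds was not tested.

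The distal TRF2 regions were among the more open parts of the genome. Openness was taken as the percentile of the MACS fold of a region among the 60354 regions open in all 4 ATAC libraries, ranked within each library. In Control, the median percentile was 77.1 and 76.4, and in TRF2KO it was 77.4 and 77.2, whereas the other distal open regions stood at 39.1 and 39.4 in Control and 38.7 and 39.1 in TRF2KO. The open region under a TRF2 region was also wider, with a median of 1272.5 bp against 801 bp. Between 25.1 and 26.7% of the distal TRF2 regions were above percentile 90, depending on the library, and between 22.2 and 24.8% were below percentile 50. Within this wide range the TRF2 fold and openness were nearly unrelated in rank, with Spearman rho values between 0.0491 and 0.0795 for the 8 pairs of a TRF2 and an ATAC library (across 1318 regions that share libraries).

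Whether loss of TRF2 changed the openness of the regions it marked was asked of the library medians. The rule limits this to regions that still had a peak in both TRF2KO libraries, so a loss of the peak could not be seen. Of the 55 regions with a peak in 3 libraries, 11 and 21 lacked the TRF2KO libraries, and 13 and 10 the Control libraries. The mean of the median percentiles was 76.7 ± 0.469 in Control and 77.3 ± 0.0762 in TRF2KO (SD over n = 2 libraries per group), a TRF2KO minus Control difference of 0.576 percentile points. By an exact permutation test, two-sided, p was 0.33, the smallest that the 6 assignments of 4 libraries can give, so that this design cannot reach 0.05. The sign depended on the scale, since percentiles within the full list of each library gave -1.50 (p = 0.33, exact permutation test). Both Control libraries stood above both TRF2KO libraries in 399 regions (30.3%, 27.8 to 32.8%), and below both in 406 (30.8%, 28.3 to 33.4%). Over all 60354 open regions these shares were 26.0%, below the interval of the distal TRF2 regions, and 28.9%, inside it. Of the other distal open regions, 30.1% (inside the interval) and 25.1% (below it) were separated in these directions. Which background the counts lay near thus differed by direction. The split also moved with the scale, to 48.9% above and 13.9% below within full lists, and to 17.5% above and 52.0% below on log2 folds centred on the library median. In bulk samples, fewer cells with an open region and less opening per cell cannot be told apart, and a missing peak means only that the threshold was not passed.

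**Figure D5:**
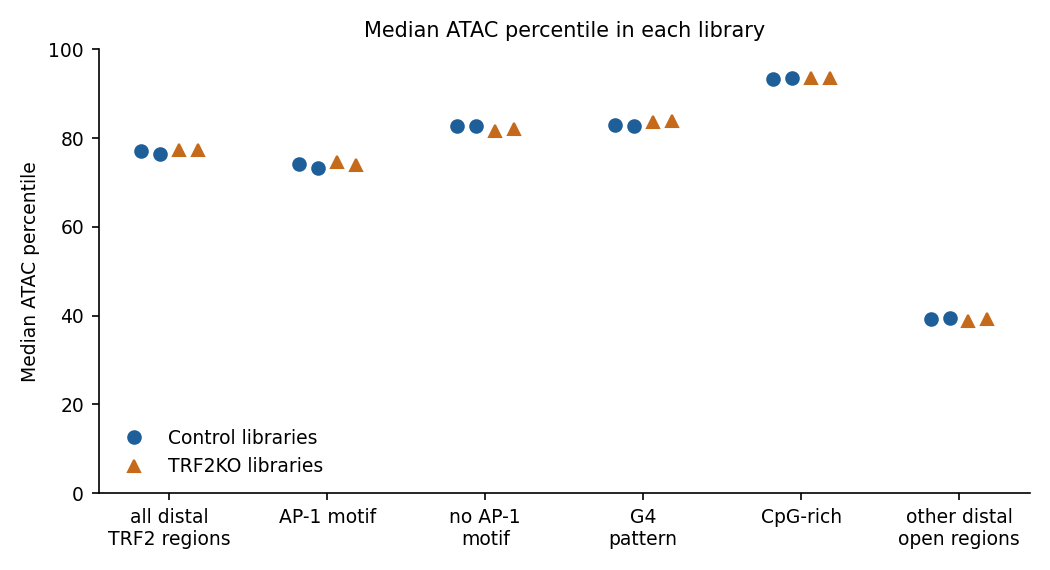
Each point is the median ATAC percentile (y axis) over a group of regions in 1 library, with Control libraries as circles and TRF2KO libraries as triangles, for all distal TRF2 regions in open chromatin, 4 overlapping subgroups of them and the other distal open regions. Control and TRF2KO points lie close together in each group, while the groups range from 38.7 in the other distal open regions to 93.6 in the CpG-rich ones.

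Regions with and without AP-1 were split next, and the direction depended on the scale. With the motif, 205 of 754 (27.2%) had both Control percentiles above TRF2KO and 258 (34.2%) below. Without it, 194 of 564 (34.4%) were above and 148 (26.2%) below. Within full lists both kinds were more often above, 46.9% against 17.4% below with AP-1 and 51.6% against 9.22% without. On centred log2 folds both were more often below, 52.7% against 15.8% above with AP-1 and 51.1% against 19.7% without. The median percentile of regions with AP-1 minus that of regions without came to -8.66 and -9.43 in the Control libraries and -7.13 and -8.04 in TRF2KO, values that did not overlap (exact permutation p = 0.33, the smallest possible), but they overlapped within full lists (-6.03 and -5.79 against -5.27 and -6.02) and on the log2 scale. For other distal open regions this difference was 2.52 and 1.58 in Control against 5.48 and 5.04 in TRF2KO, and there the groups were separate on all 3 scales. Among CpG-rich regions, 9 of 89 (10.1%) were above and 39 (43.8%) below, and again the scale mattered, with 24.7% above and 11.2% below within full lists.

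Differences of 10 points or more between the nearest libraries of the 2 groups were uncommon. Both TRF2KO libraries were at least 10 points below both Control libraries in 30 regions (2.28%) and at least 10 points above in 42 (3.19%). Over all 60354 open regions these shares were 4.50% and 3.21%. Over the other distal open regions they were 6.11% and 3.95%, so neither share of the distal TRF2 regions exceeded the background. The sets were not matched for openness, however. A rise of 10 points is not possible above percentile 90, where 25.1 to 26.7% of the distal TRF2 regions stood. The extremes named here were ranked by this difference, so their values are a description without a test. The region furthest below Control lay in an exon of Rps6ka2 (chr17:7271305-7271961), which encodes a kinase downstream of ERK. Its ATAC percentiles were 59.6 and 58.8 in Control and 36.7 and 19.4 in TRF2KO. Next were regions near Gm11473 and the coding gene Ptgis (65.7 and 60.9 against 41.5 and 29.1) and near Gm27698 and the coding gene Smad5, an effector of BMP signalling (51.1 and 44.6 against 16.2 and 26.1). All 3 were lower in each TRF2KO library, and the spread between the TRF2KO libraries was wide. Regions near Gm14642 and Gm4862 completed the 5, with gaps of 18.3 and 16.5 points.

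The region furthest above Control lay near 7420700N18Rik (chr8:31373241-31373540), whose sequence with an AP-1 motif is printed above. Its ATAC percentiles were 30.2 and 24.4 in Control and 67.2 and 66.1 in TRF2KO, from ATAC folds of 8.98 and 7.02 against 22.4 and 19.97, and its TRF2 folds were 8.56 and 8.39. Next came an intron of Mink1, which encodes a Ste20-family kinase, at 30.2 and 29.7 against 64.6 and 61.0. A region 31343 bp from Ccnd1, the gene of cyclin D1, stood at 10.9 and 9.76 against 32.2 and 34.5. A region in an intron of Fhad1 and another near Lims1, which encodes the adhesion adaptor PINCH1, had gaps of 17.2 and 16.9 points. Another intronic region of Fhad1, named after its values were seen, differed the other way, at 52.8 and 51.5 in Control and 35.6 and 36.95 in TRF2KO. In the 5 regions furthest above Control the replicates of a genotype lay closer to each other than to the other genotype. AP-1 was present in 4 of the 5, against 57.2% of all 1318 regions, and 5 regions are too few to tell these apart. Of the 5 furthest below Control, those near Gm11473 and Gm4862 also held it.

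Among genes of MuSC identity and myogenesis, 4 of 29 listed genes were nearest to a distal TRF2 region, with 5 regions in all (0.379% of 1318, against 0.293% of other distal open regions). The intronic Pax7 region lay 27310 bp from the nearest start and had TRF2 folds of 5.79 and 4.98. Its ATAC folds were 23.9 and 22.5 in Control and 48.5 and 49.7 in TRF2KO, and its percentiles 66.3 and 68.4 against 83.9 and 85.5, a gap of 15.5 points that puts it among the 42 regions named above. Openness at this region was higher in both TRF2KO libraries and the replicates were close, while the peak at the Pax7 start stood at list percentiles of 90.1 and 91.4 in Control and 88.0 and 89.6 in TRF2KO. Cre was driven from Pax7 in the TRF2KO mice, and an effect of the Cre allele on its own locus cannot be told apart from loss of TRF2.

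The other regions of this list were less different. Ezh1, a Polycomb methyltransferase, had a region in the 3′ UTR of its neighbour Cntnap1 (TRF2 folds 5.88 and 5.10), with ATAC percentiles of 58.0 and 66.2 in Control and 71.9 and 71.8 in TRF2KO. Sdc4, a syndecan that serves as a MuSC surface marker, had an intronic region at 97.8 and 97.9 against 96.9 and 97.8. A pair of regions near Fgfr4, a fibroblast growth factor receptor of the myogenic lineage, lay at 99.7, 99.8, 99.7 and 99.8 (chr13:55171564-55172125) and at 98.9, 98.9, 98.7 and 98.5 (chr13:55168997-55169459), Control first. The genotypes overlapped at Sdc4 and at the first Fgfr4 region, and at the second Control was higher by less than 1 point. When the nearest coding gene was used, 11 regions belonged to the list. The one near Fgfr1, with TRF2 folds of 8.85 and 9.17 and the 2 AP-1 motifs printed above, ranked 51 among the 1318 by the lower fold, and its ATAC percentiles (84.3, 83.6, 84.2 and 84.9) did not separate the genotypes. The others had Ezh2, Cd34, Cxcr4 or Myod1 as nearest coding gene, at 34564 bp (Myod1) to 83023 bp (Cxcr4) from the coding start.

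Of the Notch pathway, which keeps MuSCs quiescent, 2 of 14 genes were nearest to a distal TRF2 region. The intronic region of Rbpj, the DNA-binding effector of the pathway, had TRF2 folds of 5.58 and 6.84, and ATAC percentiles of 38.2 and 51.5 in Control and 57.0 and 65.8 in TRF2KO. The genotypes did not overlap at Rbpj, but the nearest libraries of the genotypes were closer to each other (5.43 points) than the Control libraries were. Heyl, a Notch target, had a region 4794 bp away at 99.8 and 99.8 against 99.4 and 99.5.

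AP-1 and immediate early genes were better represented. Of 23 listed genes, Fos, Fosb, Ier3, Nr4a1 and Egr1 were nearest to 7 distal TRF2 regions (0.531%), against 23 of the 31775 other distal open regions (0.0724%). The list was chosen with results of these data known, so this count is a description. Fos, which encodes a subunit of AP-1, had 3 regions, at chr12:85455009-85455624 (TRF2 folds 7.37 and 9.34), chr12:85485875-85486363 (5.90 and 7.98) and chr12:85497670-85498136 (4.49 and 5.89). All 3 were highly open, with ATAC percentiles between 98.4 and 99.8 in each of the 4 libraries, and none held an AP-1 motif. The Ier3 region printed above had TRF2 folds of 6.16 and 6.81 and percentiles of 92.7 and 92.0 in Control and 95.5 and 94.7 in TRF2KO. Nr4a1, an orphan nuclear receptor gene, had a region with TRF2 folds of 5.35 and 5.48 at 99.004 and 99.3 against 99.5 and 99.4. By nearest coding gene the list had 14 regions, adding Jun, Myc (3 regions in introns of Pvt1), Klf4, Btg2 and Dusp1. Several were far from the coding start, at 532120 bp for Klf4, 109043 bp for Jun and 56307, 333412 and 340911 bp for Myc. Btg2 and Dusp1 were nearer, at 13868 and 22366 bp.

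Matrix and niche genes were nearest to 8 regions, from 7 of 18 listed genes (0.607%, against 0.305%). Tnc had TRF2 folds of 8.81 and 6.13, with ATAC percentiles of 58.8 and 58.8 in Control and 56.5 and 50.1 in TRF2KO. Lama2 had 6.08 and 8.95, with 67.9 and 68.4 against 75.5 and 74.6. Tnc was thus lower and Lama2 higher in both TRF2KO libraries. Lama5, which encodes another laminin chain, stood at 70.0 and 66.0 against 73.6 and 71.2, and Timp3, an inhibitor of matrix metalloproteinases, at 97.3 and 97.7 against 98.1 and 98.1. Hspg2, the gene of perlecan, had an intronic region (chr4:137494906-137495480) at 74.9 and 69.5 against 57.9 and 61.0, the widest gap between genotypes in this list, and another at 94.7 and 94.8 against 94.2 and 93.6. Col4a2, a chain of basement membrane collagen, stood at 97.98 and 96.6 against 95.3 and 95.7, and Sparc at 95.4 and 94.7 against 94.9 and 95.4.

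Genes of the actin cytoskeleton and adhesion were nearest to 4 regions, from 3 of 19 annotated genes (0.303%, against 0.223%). Actb had TRF2 folds of 7.94 and 8.75, with ATAC percentiles of 82.1 and 84.3 in Control and 89.2 and 89.0 in TRF2KO. Regions of Tns1, encoding the focal adhesion protein tensin 1, went in opposite directions, at 89.1 and 87.6 against 82.6 and 82.3 for one and 53.3 and 52.6 against 67.2 and 62.6 for the other. The former lay 1715 bp from a RefSeq start. No shelterin gene of 12 and no muscle differentiation gene of 13 was nearest to a distal TRF2 region, by nearest start or by nearest coding gene. Those genes were nearest to 1 and 7 of the 31775 other distal open regions, so the list sizes could show little here.

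The densest cluster lay near Socs3, which encodes an inhibitor of cytokine signalling. Its 4 regions, all nearest to the start of Gm11726, lay within chr11:117932253-117941977. Their TRF2 folds were modest, from 3.87 to 4.64 in replicate 1 and from 4.08 to 5.39 in replicate 2. Over the 4 libraries, ATAC percentiles were 92.4 to 94.1 at the first region, 90.3 to 91.0 at the next, 85.4 to 86.9 at the one after and 46.4 to 49.4 at the last. A pair of the 4 held 2 AP-1 motifs each, and the other pair a G4 pattern each. The genotypes overlapped at all 4.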

How the data were processed

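The authors trimmed reads (Cutadapt 4.4), aligned them to mm10 (Bowtie2; versions 2.4.4 and 2.5.4 in the submitters' processing notes), removed duplicates (Picard 3.1.1) and called peaks per library with MACS3, SEACR 1.3 and GoPeaks. Neither a transposase shift nor IgG as a control in peak calling is stated. The deposited MACS lists hold a fold enrichment (a ratio of pileup over background) and -log10 q, and per the file headers or values the SEACR, GoPeaks and DiffBind 3.10.1 lists gave positions, signal or score columns, of which positions were used here.

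Libraries were grouped by title. Regions overlapped by 1 bp or more. Genes and starts came from GENCODE M21, sequence from GRCm38 and enhancers from RefSeq. Motifs were searched on both strands, mitochondrial homology with BLAST 2.17.0 (at least 100 bp and 80% identity), and scripts (Python 3.11.15, SciPy 1.17.1) were tested on simulated data. Regions named were the 10 highest TRF2 folds, up to 4 per gene list, telomeric regions, the 5 largest falls and rises and genes nearest to 4 or more. Other regions named (further ones of the gene lists, and those by nearest coding gene, mitochondrial homology or RefSeq enhancer) were chosen after their values were seen. The members and gene lists were chosen with earlier results of these data known. Nothing says that replicates came from separate mice, so p-values may measure technical spread. A region of the cytoskeleton list and the telomeric sequences are not reported here.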

Additional observations from a re-analysis of the deposited data

How the results depend on the processing

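Stricter TRF2 peaks (-log10 q of at least 5) left 555 regions, with AP-1 in 60.4%, G4 in 24.0%, telomeric repeats in 0.901% and 48.5% between genes, and the genotype difference in median percentile reversed to -0.734 (exact permutation p = 0.33). SEACR in place of MACS left 830 regions, a difference of -0.265 (p = 0.667, exact), Control above TRF2KO in 34.7%, AP-1 in 52.7%, G4 in 23.3% and telomeric repeats in 0.120%. Percentiles within full lists gave -1.50 (p = 0.33, exact) and 48.9% above, and centred log2 folds 17.5% above. A distance over 10 kb left 808 regions, 48.5% of them between genes, and coding starts only gave 39.1% between genes and AP-1 in 52.6%. Keeping regions with an IgG peak gave AP-1 in 54.0% and telomeric repeats in 1.28%. Windows of 300 bp gave AP-1 in 46.4% and G4 in 14.1%, and loops of up to 12 bases G4 in 30.9%. Without the 30 highest TRF2 folds, an alternative chosen after seeing the data, no telomeric region was left (0%), and AP-1 stood at 58.4%. Leaving out 1 library at a time gave 1328 to 3083 regions (3083 without TRF2 replicate 1 and 2397 without replicate 2, when 1 TRF2 peak sufficed), differences of 0.165 to 0.867, Control above in 30.7 to 42.2%, AP-1 in 41.1 to 57.5%, G4 in 11.6 to 19.7%, telomeric repeats in 0.162 to 0.377% and 44.2 to 45.5% between genes. Of 19 settings, 16 kept the sign of the genotype difference, among them the replicate block, which uses the same difference and could not change its sign. With the replicate number as a replicate block the difference was 0.576 (exact sign-flip p = 0.5). Deviations of same-numbered libraries correlated at 0.0170 over 60354 regions, so no shared deviation was seen. With 2 libraries per group this cannot show whether same-numbered libraries were collected as pairs. Where a value moved, the cause was not tested. The median summit rested on an estimated 11 fragments in each TRF2 library, and the part of depth in the calls was not tested.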
